A study of Mus musculus with 15 samples.

Results

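Mature neutrophils carry receptors that guide them to sites of infection and a cytoplasm packed with S100 proteins, and 9 of the genes behind this equipment were followed across mouse bone marrow with and without acute myeloid leukaemia (AML). The genes were Fpr1, Fpr2, Cxcr2, Trem1, Trem3, Il1r2, S100a8, S100a9 and Padi4. They were taken by name from a table of 38315 genes, each name matched 1 row, and all 9 passed the filter on low values that left 18941 genes for testing.

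RNA of bone marrow was sequenced in bulk in 15 samples. AML marrow came from 7 mice labelled NUP98NSD1/FLT3ITD, described as transgenic and leukemic; NUP98-NSD1 joins a nucleoporin to a histone methyltransferase, while FLT3-ITD stands for a duplicated internal stretch of the receptor tyrosine kinase FLT3. Wild-type whole marrow (4 samples) and wild-type lineage-negative marrow (4 samples), depleted of cells bearing surface antigens of mature blood lineages, were the reference groups. The promoters that drive the transgenes, the ages of the mice, the antibodies used for depletion and any pooling of mice are not given in the sources used here, so p-values measure the spread between these samples. AML and lineage-negative marrow differ both in genotype and in depletion, and these cannot be told apart.

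Neutrophils form in the marrow from progenitors that first fill primary granules, then secondary granules. The receptors and cytosolic proteins described here build up as maturation proceeds, not all at the same stage. The formyl peptide receptors FPR1 and FPR2 detect peptides released by bacteria and damaged mitochondria, and CXCR2 binds chemokines that draw neutrophils out of the marrow against the retention signal of CXCR4. TREM1 and TREM3 amplify inflammatory signals through the adaptor TYROBP. IL1R2 is a decoy that binds interleukin 1 without signalling. S100A8 and S100A9 form calprotectin, an abundant metal-binding dimer of the neutrophil cytosol, and PADI4 citrullinates histones during the release of chromatin traps.

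The genes lie in 3 neighbouring pairs and 3 single loci. In the coordinates of the deposited table, S100a8 (chromosome 3, 90576285 to 90577342, plus strand) and S100a9 (chromosome 3, 90599939 to 90603028, minus strand) are separated by 22596 bases. Fpr1 (chromosome 17, 18096733 to 18104202, minus strand) and Fpr2 (chromosome 17, 18108086 to 18114214, plus strand) are separated by 3883 bases and are read away from each other. Only 852 bases part Trem1 (chromosome 17, 48539796 to 48553952, plus strand) from Trem3 (chromosome 17, 48554805 to 48565869, plus strand). Cxcr2 (chromosome 1, 74193148 to 74200405, plus strand) and Il1r2 (chromosome 1, 40113239 to 40164391, plus strand) share a chromosome, and Padi4 is on chromosome 4 (140473176 to 140501547, minus strand). All are annotated as protein coding. The build of these coordinates was not settled: mm10 is named in the submitters' processing notes, yet the starts of all 9 genes differ from those of the GRCm38 annotation. Fpr1 and Fpr2, and Trem1 and Trem3, are paralogs whose shared reads may have been split in counting.

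The sequences just upstream of S100a8, S100a9, Fpr1 and Fpr2 are shown because these genes differed most between lineage-negative marrow and the other groups. Each is the 250 bases before the RefSeq transcription start in GRCm38.p6, read 5′ to 3′ on the strand of the gene. Capitals mark 3 short motifs searched on both strands: a C/EBP core (TTNCNNAA), a PU.1 core (GAGGAA) and a TATA box (TATAAA).
S100a8 (chr3:90668821-90669070, plus strand): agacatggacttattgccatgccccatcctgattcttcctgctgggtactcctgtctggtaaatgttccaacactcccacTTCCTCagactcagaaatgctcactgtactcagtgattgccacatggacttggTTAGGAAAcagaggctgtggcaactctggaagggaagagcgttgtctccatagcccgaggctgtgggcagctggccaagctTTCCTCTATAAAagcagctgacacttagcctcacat
S100a9 (chr3:90695722-90695971, minus strand): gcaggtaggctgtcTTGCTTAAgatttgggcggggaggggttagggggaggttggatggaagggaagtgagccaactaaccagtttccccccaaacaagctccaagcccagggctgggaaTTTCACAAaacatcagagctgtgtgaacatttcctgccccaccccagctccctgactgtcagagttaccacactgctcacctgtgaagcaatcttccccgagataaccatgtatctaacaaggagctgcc
Fpr1 (chr17:17883940-17884189, minus strand): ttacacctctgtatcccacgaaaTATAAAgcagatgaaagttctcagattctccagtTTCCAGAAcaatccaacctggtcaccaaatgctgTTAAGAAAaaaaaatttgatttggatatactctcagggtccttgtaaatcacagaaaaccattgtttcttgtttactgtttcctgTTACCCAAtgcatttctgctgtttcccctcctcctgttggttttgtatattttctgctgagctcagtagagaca
Fpr2 (chr17:17887574-17887823, plus strand): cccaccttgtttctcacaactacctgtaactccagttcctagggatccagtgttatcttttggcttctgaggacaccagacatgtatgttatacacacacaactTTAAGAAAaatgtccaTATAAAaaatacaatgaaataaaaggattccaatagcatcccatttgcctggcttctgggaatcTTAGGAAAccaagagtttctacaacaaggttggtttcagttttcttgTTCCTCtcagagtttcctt

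S100a8 holds a TATA box at bases -30 to -25 from the start, directly after a PU.1 core at -36 to -31, a second PU.1 core at -170 to -165 and a C/EBP core at -117 to -110. S100a9 has C/EBP cores at -236 to -229 and -130 to -123 and neither other motif. Fpr1 carries 3 C/EBP cores and a TATAAA match far upstream at -227 to -222. Fpr2 has C/EBP cores at -146 to -139 and -66 to -59, a PU.1 core at -19 to -14 and a TATAAA match at -130 to -125. No matches overlapped in these windows. RefSeq promoters were matched for 8 of the 9 genes, and 5 of the 8 held the C/EBP core, 4 the PU.1 core and 4 TATAAA. Of these TATAAA matches, only those of S100a8 and Padi4 (-31 to -26) lay near base -30. Of all 32851 mouse promoters of this length, 36.8% held the C/EBP core, 23.3% the PU.1 core and 12.4% TATAAA, at any position. The C/EBP core is short and common, and a match is a description of letters, not of a bound factor.

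Values are normalized counts, that is, read counts per gene divided by a size factor per library. They compare a gene across libraries. To compare genes with each other, levels were divided by exonic length and are given per kilobase. Errors are standard deviations (SD) over the 7 AML, 4 whole and 4 lineage-negative samples, and samples of a group are listed by replicate number. Differences are given as log2 differences of normalized counts plus 1, with standard errors (SE), from limma across all 18941 genes with Benjamini-Hochberg adjustment. Calls required both an adjusted p below 0.05 and a log2 difference of 1 or more in either direction.

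The scaling of the table bears on 2 of the 3 comparisons. At the deposited scaling the median gene was 0.67 higher on the log2 scale in AML than in whole marrow, and 0.59 higher in lineage-negative than in whole marrow. It differed by only 0.02 between AML and lineage-negative marrow. Scaling by the trimmed mean of M values (TMM), which centres most genes on 0, moved these medians to -0.01, -0.09 and 0.03. Of the genes called between AML and whole marrow, 70.8% were higher in AML at the deposited scaling and 22.8% with TMM. Of those called between lineage-negative and whole marrow, 65.8% were higher in lineage-negative marrow at the deposited scaling and 30.7% with TMM. Depth was 20.3 to 35.1 M reads in AML (M, mega), 11.4 to 17.2 M in whole marrow and 20.3 to 28.1 M in lineage-negative marrow, so whole marrow was the shallowest group. Genes of olfactory and vomeronasal receptors, which marrow is not known to use, averaged 6.30 to 11.9 normalized counts in whole marrow and 0.325 to 0.462 in lineage-negative marrow. In AML that average was 0.404 to 0.642 in 5 libraries, 1.15 in replicate 5 and 3.35 in replicate 6.

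**Figure D1:**
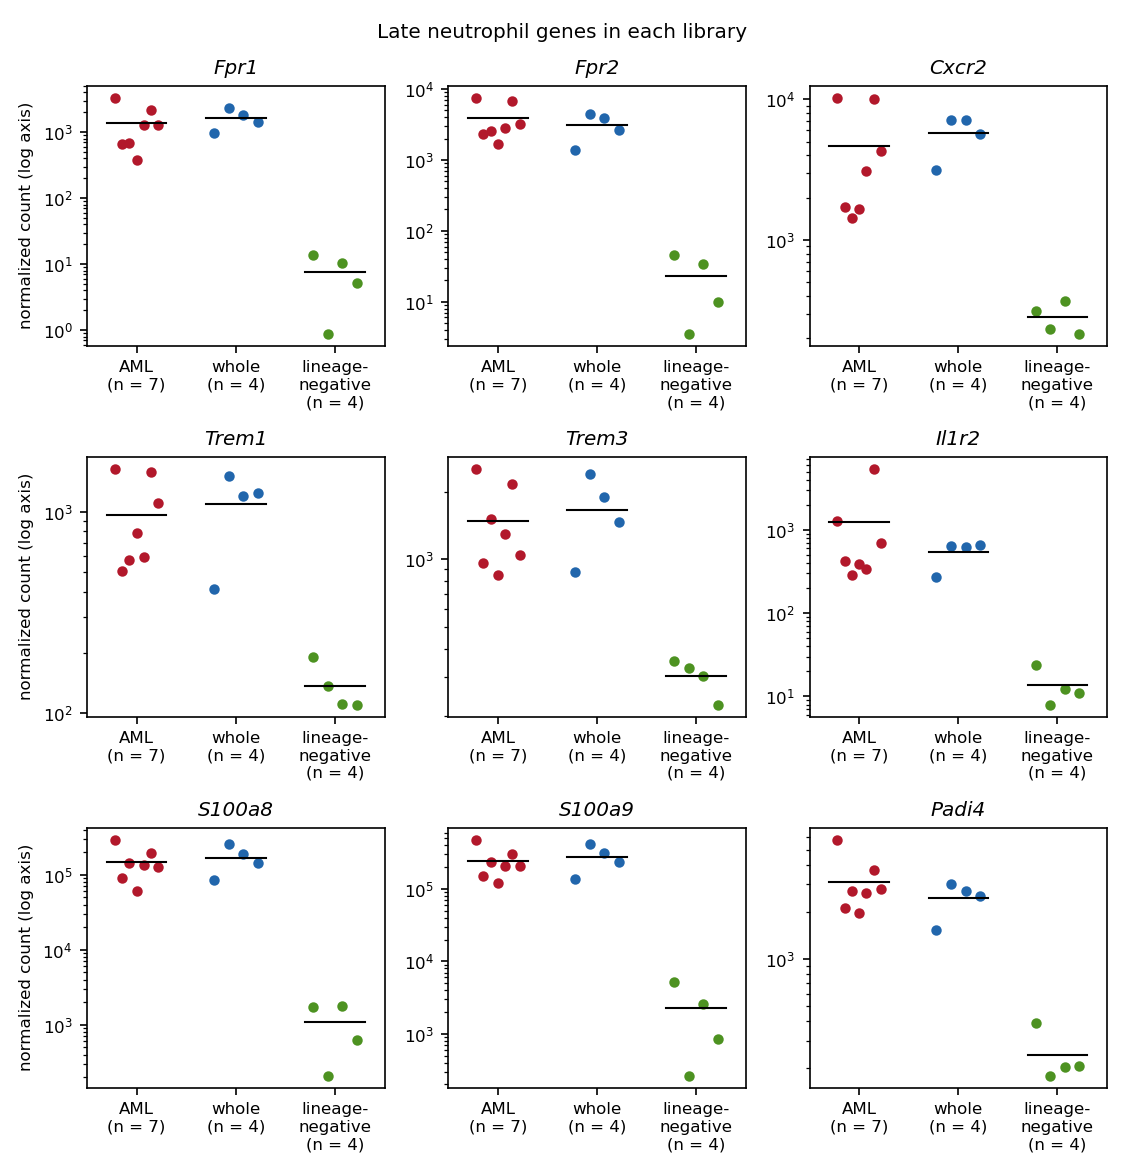
Normalized counts (log axis) of each of the 9 genes in every library, in replicate order within each group (7 AML, 4 whole, 4 lineage-negative); black bars are group means. The lineage-negative libraries lie below every AML and whole marrow library for all 9 genes, while AML and whole marrow overlap in each panel.

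S100a8 and S100a9 were the most abundant of the 9 genes and marked the gap between lineage-negative marrow and both other groups. S100a8 ranged from 61277 to 291953 in AML, with a median of 132867. In whole marrow its values were 84328, 257045, 187160 and 144235, and in lineage-negative marrow 1714, 209, 1807 and 627. All 7 AML libraries stood above all lineage-negative libraries, and 5 of the 7 lay inside the range of whole marrow, with 1 above and 1 below.

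S100a9, the partner subunit, ranged from 119887 to 477315 in AML, with a median of 210729. Whole marrow gave 138126, 420180, 315196 and 236761. The lineage-negative libraries gave 5246, 263, 2596 and 847, a 19.98-fold spread within that group. The lowest AML library still exceeded the highest lineage-negative one 22.9-fold.

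S100a8 was higher in AML than in lineage-negative marrow, with a log2 difference of 7.39 (SE 0.51, adjusted p = 9e-10), and S100a9 by 7.40 (SE 0.59, adjusted p = 5.4e-09). Both were lower in lineage-negative than in whole marrow, by -7.60 for S100a8 (SE 0.58, adjusted p = 1.7e-08) and -7.60 for S100a9 (SE 0.67, adjusted p = 5.4e-08). Between AML and whole marrow neither passed the test: the log2 difference was -0.22 for S100a8 (SE 0.51, adjusted p = 0.72) and -0.20 for S100a9 (SE 0.59, adjusted p = 0.78).

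Together the S100 pair took up 2.65% ± 0.647 of the normalized counts of a whole marrow library (SD, n = 4), 1.48% ± 0.681 of an AML library (SD, n = 7) and 0.0170% ± 0.0143 of a lineage-negative library (SD, n = 4). The other 7 genes together held 0.0973%, 0.0631% and 0.0052%. AML replicate 1 at 2.63% and AML replicate 6 at 2.01% had the highest shares of the leukemic samples; only replicate 1 exceeded the lowest whole marrow share of 2.13%. A share is unaffected by the scaling of a library but moves with whatever else the library holds. Haemoglobin and other erythroid markers, for example, summed to 556431 to 1357478 normalized counts in whole marrow and 289 to 20065 in AML; their part in the shares was not tested.

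The formyl peptide receptors showed the same contrast at much lower levels. Fpr1 ranged from 382 to 3315 in AML, with a median of 1263. Whole marrow gave 960, 2286, 1834 and 1442. In lineage-negative marrow it was nearly undetected, at 13.6, 0.881, 10.6 and 5.22, and replicate 2 was under the value of 3 reads in that library (2.64), below which a value was not told from 0.

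Fpr2 ranged from 1669 to 7520 in AML, with a median of 2820. Its whole marrow values were 1377, 4478, 3848 and 2683, and its lineage-negative values 46.3, 3.53, 33.5 and 9.79. For both receptors lineage-negative replicates 1 and 3 were the higher and replicates 2 and 4 the lower ones, in the same order as for S100a9. Per kilobase of exon, Fpr2 stood at 2968 in AML, 2389 in whole marrow and 17.96 in lineage-negative marrow, and Fpr1 at 1053, 1231 and 5.72.

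Fpr1 was higher in AML than in lineage-negative marrow, with a log2 difference of 7.37 (SE 0.53, adjusted p = 1.4e-09), and Fpr2 by 7.63 (SE 0.52, adjusted p = 8.3e-10), the largest difference of the 9 genes in that comparison. Lineage-negative marrow was lower than whole marrow by -7.86 for Fpr1 and -7.39 for Fpr2 (adjusted p = 1.7e-08 and 2.3e-08). With lineage-negative values this low, the pseudocount shapes the size of the Fpr1 difference, which ran from 6.60 to 7.75 in AML against lineage-negative marrow over the alternatives tried. AML did not pass the test against whole marrow for Fpr1 (-0.49, SE 0.53, adjusted p = 0.43; -1.19 and 0.091 with TMM, and called lower at -1.25 and 0.036 under quantile scaling) or Fpr2 (0.24, SE 0.52, adjusted p = 0.70). Of the other formyl peptide receptor genes, Fpr3, Fpr-rs4, Fpr-rs6 and Fpr-rs7 are in the table and none was kept; the highest value in any library was 7.18, for Fpr-rs4.

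Cxcr2, the chemokine receptor for release from the marrow, divided the AML libraries. Its AML values ran from 1442 to 10236, with a median of 3115. Whole marrow gave 3124, 7102, 7149 and 5628, and lineage-negative marrow 314, 233, 370 and 215. AML replicates 1 and 6 lay above every whole marrow library and 4 AML libraries lay below every one.

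Cxcr2 was higher in AML than in lineage-negative marrow, with a log2 difference of 3.63 (SE 0.46, adjusted p = 2.7e-06) and lower in lineage-negative than in whole marrow by -4.30 (SE 0.52, adjusted p = 1.4e-06). Against whole marrow the AML difference was -0.67 (SE 0.46, adjusted p = 0.21) at the deposited scaling and -1.37 (SE 0.46, adjusted p = 0.027) with TMM, where it was called lower. None of the other 8 genes was called under TMM. Cxcr2 was also called lower under quantile scaling (-1.44, adjusted p = 0.014) and with array weights (-1.092, adjusted p = 0.012).

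Trem1, a receptor that boosts the response to microbial signals, and its neighbour Trem3 kept a clear level in lineage-negative marrow. Cxcr2 and Padi4 did so too. Trem1 ranged from 507 to 1632 in AML, with a median of 784. Its whole marrow values were 415, 1498, 1193 and 1244, against 190, 138, 112 and 110 in lineage-negative marrow. Trem3 ranged from 853 to 2528 in AML, with a median of 1295. Whole marrow gave 877, 2386, 1900 and 1472, and lineage-negative marrow 351, 326, 303 and 225.

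These were the smallest gaps of the 9 genes. Trem1 was higher in AML than in lineage-negative marrow, with a log2 difference of 2.70 (SE 0.35, adjusted p = 3.9e-06) and Trem3 by 2.20 (SE 0.29, adjusted p = 4.6e-06). Lineage-negative marrow was lower than whole marrow by -2.86 for Trem1 (adjusted p = 6.2e-06) and -2.38 for Trem3 (adjusted p = 5.8e-06). The lowest AML library exceeded the highest lineage-negative one 2.67-fold for Trem1 and 2.43-fold for Trem3. Against whole marrow AML gave -0.17 for Trem1 (adjusted p = 0.70) and -0.18 for Trem3 (adjusted p = 0.60). With TMM these values were -0.86 (adjusted p = 0.040) and -0.88 (adjusted p = 0.013), past the p threshold but short of the log2 difference of 1.

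Il1r2, the interleukin 1 decoy, had the widest range in AML and 1 library far above the rest. Its AML values ran from 287 to 5411, with a median of 429; replicate 6 gave 5411, replicate 1 gave 1266 and replicate 7 gave 700. Whole marrow gave 271, 635, 621 and 658, and lineage-negative marrow 23.6, 7.93, 12.3 and 11.1. The AML mean of 1260 fell to 568.3 without replicate 6, close to the whole marrow mean of 546.

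Il1r2 was higher in AML than in lineage-negative marrow, with a log2 difference of 5.66 (SE 0.58, adjusted p = 1.5e-07) and lower in lineage-negative than in whole marrow by -5.23 (SE 0.65, adjusted p = 1.9e-06). It did not pass the test between AML and whole marrow (0.43, SE 0.58, adjusted p = 0.53), and the difference turned to -0.06 without AML replicate 6.

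Padi4, the histone-citrullinating enzyme, varied least among AML libraries, 2.93-fold from lowest to highest. It ranged from 1969 to 5775 in AML, with a median of 2733. Whole marrow gave 1519, 3018, 2709 and 2540, and lineage-negative marrow 390, 179, 205 and 206. It was higher in AML than in lineage-negative marrow, with a log2 difference of 3.64 (SE 0.28, adjusted p = 2.6e-09) and lower in lineage-negative than in whole marrow by -3.34 (SE 0.31, adjusted p = 9.8e-08). Between AML and whole marrow the difference was 0.30 (SE 0.28, adjusted p = 0.35), and -0.40 with TMM (adjusted p = 0.22). Among the other peptidylarginine deiminases, Padi2 was higher in AML than in whole marrow by 1.51 (adjusted p = 0.0073; 0.81 and not called with TMM), and it did not pass the test between AML and lineage-negative marrow (0.04, adjusted p = 0.95).

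Across the set, 9 of 9 genes were called higher in AML than in lineage-negative marrow, where 17.7% of all genes tested were called higher and 12.5% lower. In lineage-negative against whole marrow 9 of 9 were called lower, where 17.2% of all genes tested were called lower and 33.1% higher. Between AML and whole marrow 0 of 9 were called in limma, and 0 had an unadjusted p under 0.05 (4 of 9 with TMM), where 27.3% of all genes tested were called higher and 11.3% lower. With TMM, 1 of 9 was called lower (Cxcr2), against 16% of all genes tested called lower and 4.73% called higher. Without AML replicates 5 and 6 the counts in both comparisons with AML were again 0 and 9 of 9. The 2 comparisons with AML share the AML samples, and those with whole marrow share the whole marrow samples. Those with lineage-negative marrow share the lineage-negative samples, so both results of 9 of 9 rest on the same low group. In a bulk sample, fewer neutrophils and less of a transcript per neutrophil cannot be told apart.

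The libraries of AML and lineage-negative marrow did not overlap for 9 of 9 genes, a separation with AML above found for 17.0% of all genes tested and with AML below for 17.6%. Lineage-negative libraries were all below whole marrow for 9 of 9, as for 16.6% of all genes tested, while 41.1% had them all above. AML and whole marrow overlapped for all 9, whereas AML was above whole marrow without overlap for 35.8% of all genes tested and below for 7.88%. Over the 63 pairings of a gene with an AML library, 38 lay inside the whole marrow range of that gene, 15 above it and 10 below it. These pairings are not independent, since the 9 genes share the same libraries, and no share over all genes is given beside them. Whole marrow replicate 1 set the lower end of each range. Median log2 differences over the 9 genes were -0.18 for AML against whole marrow, where the median of all genes was 0.67, and -0.88 with TMM, where that median was -0.01. For AML against lineage-negative marrow the median over the 9 was 5.66, beside 0.02 for all genes, and for lineage-negative against whole marrow it was -5.23, beside 0.59.

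**Figure D2:**
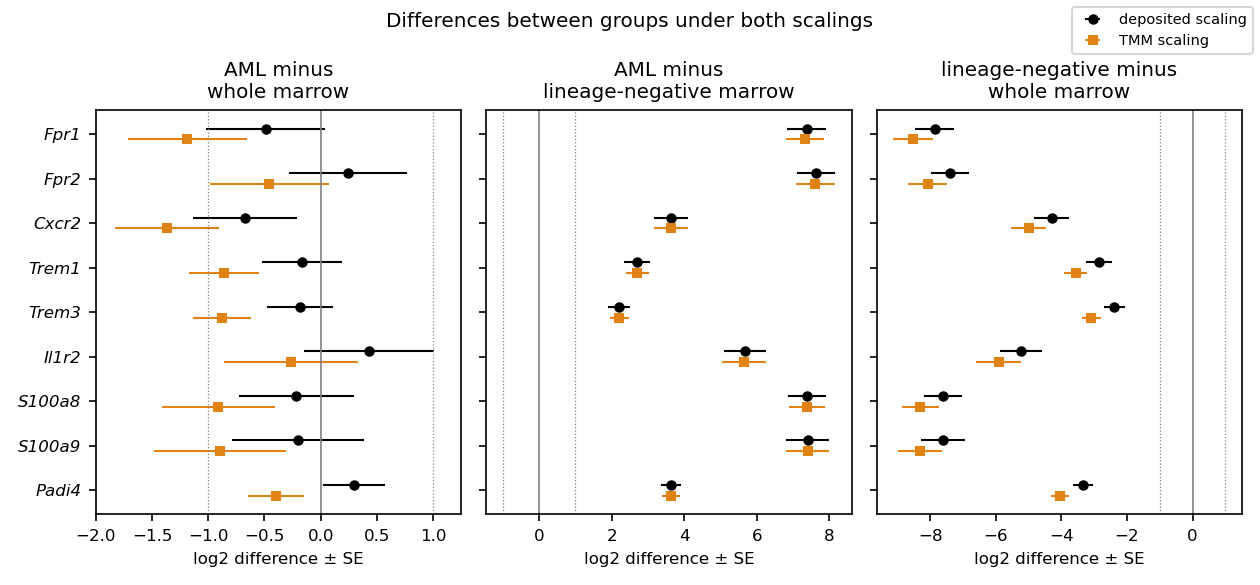
Log2 differences (limma, ± SE) of the 9 genes in the 3 comparisons, at the deposited scaling (black circles) and with TMM scaling (orange squares); dotted lines mark -1 and 1. Between AML and whole marrow every gene shifts left under TMM, from between -0.67 and 0.43 to between -1.37 and -0.26; the gaps to lineage-negative marrow stay past 2 on the log2 scale under either scaling.

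Ordered per kilobase of exon, S100a9 led in every group (468625 in AML, 531735 in whole marrow, 4287 in lineage-negative marrow), followed by S100a8 (214844, 242351 and 1569). In AML the next were Fpr2 at 2968, Cxcr2 at 1519, Trem3 at 1488, Fpr1 at 1053, Il1r2 at 660, Padi4 at 642 and Trem1 at 323. The place of Il1r2 rests on AML replicate 6: without that library it stood at 297.8, below Padi4 at 621.3 and close to Trem1 at 289.7. Each neighbour from Fpr2 to Padi4 in the order over all 7 libraries differed from the next by less than the SD of the higher gene. In lineage-negative marrow the order was another: Trem3 followed S100a8 at 303, then Cxcr2 at 92.9, Padi4 at 50.6, Trem1 at 45.8, Fpr2 at 17.96, Il1r2 at 7.20 and Fpr1 at 5.72. Fpr2, next after the S100 pair in both other groups, thus came below 4 more genes there.

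Ratios of 2 genes within a library were formed on the log2 scale after adding 1 to each value, so that scaling enters them only through that 1, which weighs at low values such as those of Fpr1 and Fpr2 in lineage-negative marrow. Values were not corrected for gene length. The 5 ratios were tested in 3 comparisons by exact two-sided permutation tests, adjusted over the 15 tests. With 330 splits of 7 against 4 samples the smallest p these tests could give was 0.00303, and with 70 splits of 4 against 4, where mirrored splits give the same size of difference, it was 0.0286.

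The ratio of Fpr1 to Fpr2 was lower in AML than in whole marrow. Its mean log2 was -1.59 ± 0.38 over 7 AML libraries and -0.86 ± 0.24 over 4 whole marrow libraries (SD), so that Fpr1 counts stood at 0.331 of Fpr2 counts in AML and at 0.550 in whole marrow. All 7 AML libraries, from -2.12 to -1.16, lay below the 4 whole marrow libraries, from -1.07 to -0.52. No share over all gene pairs is given beside this separation. The difference of -0.73 gave an exact permutation p of 0.00909, adjusted 0.045. Neither receptor alone passed the test between these groups. With 1 library left out the difference stayed between -0.80 and -0.62, but its adjusted p, 0.048 to 0.086, passed the threshold in only 3 of 11 such tests, those without AML replicate 1, 5 or 7. It was over 0.05 without AML replicate 2, 3, 4 or 6 or without any 1 of the whole marrow libraries; fewer samples also raise the smallest p that a test can give.

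Cxcr2 was set against Cxcr4, the receptor that holds neutrophils in the marrow. The mean log2 ratio was -1.29 ± 1.14 in the 7 AML libraries, 0.07 ± 0.24 in the 4 whole marrow libraries and -3.76 ± 0.58 in the 4 lineage-negative libraries (mean ± SD). AML libraries fell apart in this ratio: replicates 1 and 6, at 0.13 and 0.34, lay within the whole marrow range of -0.09 to 0.42, and the other 5 lay between -2.70 and -1.38. The ratio was higher in AML than in lineage-negative marrow by 2.48 (exact permutation p = 0.00606, adjusted 0.045). With 1 library left out that difference ran from 2.21 to 2.71 with an adjusted p of 0.034 to 0.086, over 0.05 without AML replicate 2, 3 or 6 or lineage-negative replicate 2. AML against whole marrow, at -1.35, gave an exact p of 0.0636, adjusted 0.16, and did not pass the test. The difference of Cxcr2/Cxcr4 between lineage-negative and whole marrow was -3.83 (exact p = 0.0286, adjusted 0.086), with no overlap. Cxcr4 itself was at 8631 ± 2144 in AML, 5405 ± 1563 in whole and 3877 ± 1158 in lineage-negative marrow. Summed neutrophil markers had medians of 1759 in lineage-negative and 83625 in whole marrow. Cxcr4 in bulk marrow is thus not a level of neutrophils alone, and the ratio is not one within neutrophils.

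Il1r2 was set against Il1r1, the signalling receptor for the same ligands. The mean log2 ratio was 2.89 ± 2.01 in the 7 AML libraries, 2.44 ± 0.39 in the 4 whole marrow libraries and -4.15 ± 0.39 in the 4 lineage-negative libraries (mean ± SD). The AML libraries spread from 0.76 in replicate 3 to 6.61 in replicate 6. The difference of 7.04 between AML and lineage-negative marrow had the smallest exact permutation p this test can give (0.00303, adjusted 0.045). With 1 library left out it ran from 6.42, without AML replicate 6, to 7.40 with an adjusted p of 0.034 to 0.071, over 0.05 without AML replicate 2, 3 or 6 or lineage-negative replicate 2. Lineage-negative against whole marrow gave -6.59 (exact p = 0.0286, adjusted 0.086) and AML against whole marrow 0.45 (exact p = 0.72, adjusted 0.98). Il1r1 itself was called lower in AML than in lineage-negative marrow (-1.38, adjusted p = 0.0014).

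S100a8 and S100a9 kept nearly the same proportion in AML and whole marrow. The mean log2 ratio was -0.74 ± 0.11 in the 7 AML libraries, -0.72 ± 0.02 in the 4 whole marrow libraries and -0.72 ± 0.60 in the 4 lineage-negative libraries (mean ± SD). S100a8 counts were therefore about 0.599 to 0.606 of S100a9 counts in the 3 group means, with 0.511 to 0.637 across AML libraries and 0.594 to 0.612 across whole marrow libraries. Lineage-negative libraries ran from 0.327 in replicate 1 to 0.796 in replicate 2. None of the 3 comparisons passed the test (exact p = 0.88, 0.98 and 1, adjusted 1). Without lineage-negative replicate 1 the difference between AML and lineage-negative marrow was -0.31, with an adjusted exact p of 0.034.

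The ratio of Trem1 to Trem3 had a mean log2 of -0.65 ± 0.53 in the 7 AML libraries, -0.67 ± 0.34 in the 4 whole marrow libraries and -1.14 ± 0.24 in the 4 lineage-negative libraries (mean ± SD). No comparison passed the test, with exact permutation p of 0.94, 0.12 and 0.086 and adjusted p of 1, 0.20 and 0.18. The AML libraries ran from -1.38 in replicate 3 to 0.08 in replicate 7.

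**Figure D3:**
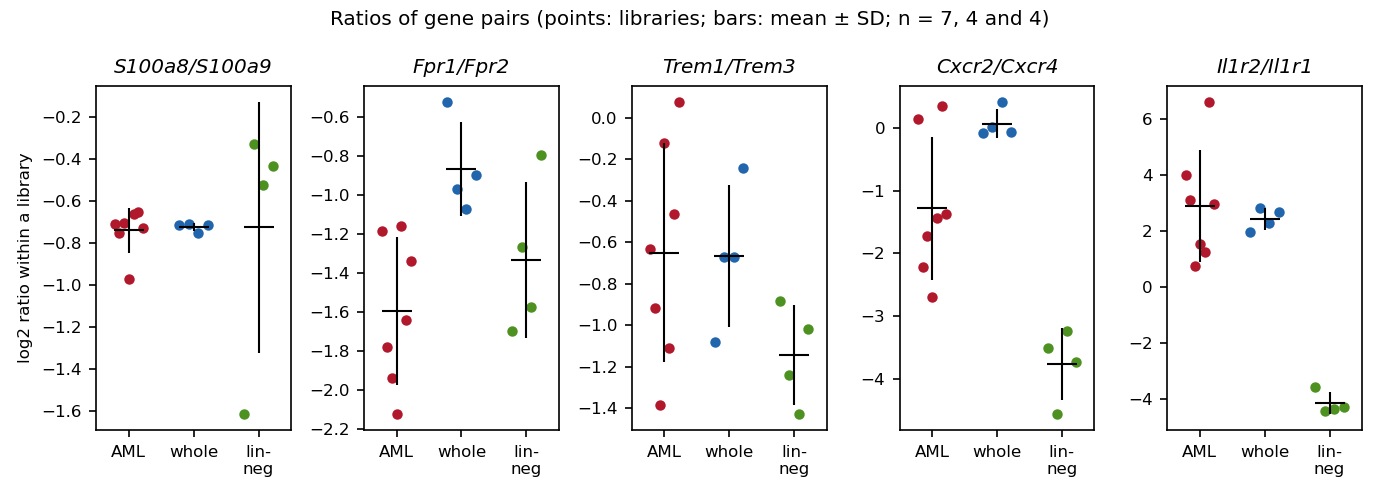
Log2 ratios of 5 gene pairs within each library (points), with group means and SD (black), for 7 AML, 4 whole and 4 lineage-negative (lin-neg) samples. For Fpr1/Fpr2 the highest AML library (-1.16) lies just below the lowest whole marrow library (-1.07). Cxcr2/Cxcr4 puts AML replicates 1 and 6 at the level of whole marrow, and Il1r2/Il1r1 separates lineage-negative marrow from both other groups.

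The AML libraries differed from each other in the 9 genes together. Replicate 1 had the highest value for 8 of 9 genes and replicate 6 the second highest for 8, with Il1r2 as the exception in which they changed places. Replicate 4 was lowest for 6 of the 9. Relative to each gene's AML median, the median over the 9 genes was 2.27 in replicate 1, 1.74 in replicate 6, 1.02 in replicate 7, 1.00 in replicate 5, 0.918 in replicate 3, 0.717 in replicate 2 and 0.592 in replicate 4. The highest AML library exceeded the lowest 18.9-fold for Il1r2, 8.68-fold for Fpr1, 7.10-fold for Cxcr2 and 2.93-fold for Padi4.

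Over the 7 AML libraries the 36 correlations between 2 of the genes on the log2 scale ranged from 0.58 to 0.99, with a median of 0.86; the points share library scaling and depth. Summed neutrophil markers (Ly6g, Csf3r, Retnlg, Mmp8, Mmp9 and Cd177) moved with this order. They came to 161212 in AML replicate 1 and 132363 in replicate 6, and to between 42181 and 72550 in the other 5. Summed monocyte markers did not follow it, with 110774 in replicate 1 and the lowest value, 59828, in replicate 6. Replicate 6 also had the highest AML level of receptor genes that marrow is not known to use (3.35, given above); its part in the values of this library was not tested.

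In whole marrow, replicate 1 was lowest for 9 of 9 genes and had the fewest reads (11.4 M) and the highest level of those receptor genes (11.9). Its normalized counts summed to 10221001, against 17865234 to 19285222 in the other whole marrow libraries. As a share of the library, the S100 pair took 2.18% there and 2.13% in replicate 4. The other 7 genes together took 0.0836% there and 0.0877% in replicate 4. The part of scaling in its low values was not tested. Replicate 2 was highest for 7. Among lineage-negative libraries replicate 1 was highest for 7 of 9 and replicate 2 lowest for 6, and the summed neutrophil markers were 3430 in replicate 1 and 1281 in replicate 2.

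**Figure D4:**
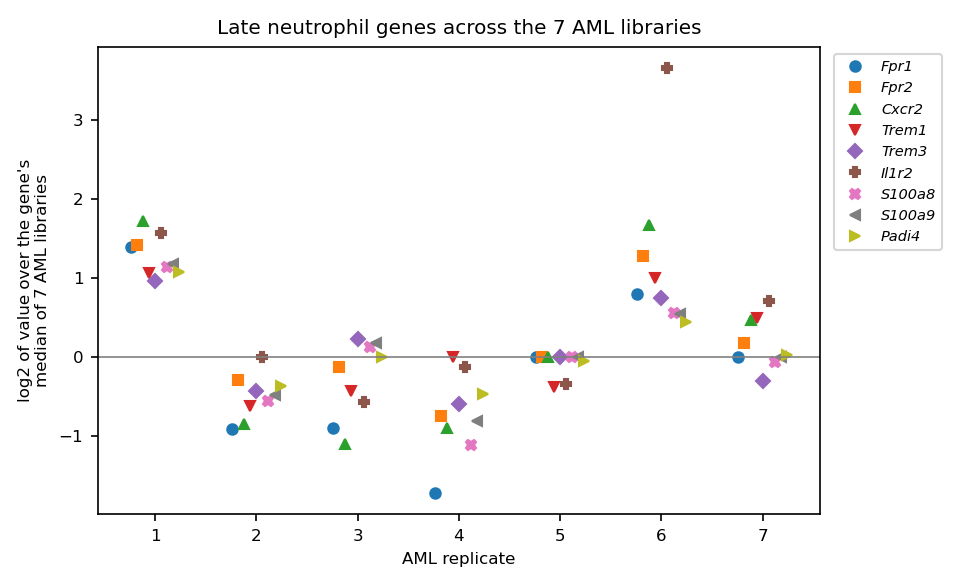
Each of the 9 genes in the 7 AML libraries, as the log2 of its value over the gene's own median of the 7 libraries. All 9 genes are above 0 in replicates 1 and 6, and Il1r2 in replicate 6 stands 12.6-fold above its median.

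Genes of earlier and parallel stages of neutrophil maturation were set beside the 9. Counts called in this and the following lists stand beside the shares over all genes tested. Those shares were 27.3% higher and 11.3% lower for AML against whole marrow, and 17.7% and 12.5% against lineage-negative marrow. Of 5 primary granule genes kept, which are made first, 0 were called between AML and whole marrow by limma (0 at an unadjusted p under 0.05), and 2 were called lower in AML than in lineage-negative marrow: Mpo, myeloperoxidase (-2.21, adjusted p = 0.00034), and Ctsg, cathepsin G (-1.68, adjusted p = 0.0017). Of 7 genes of the secondary granule list, among them Ltf, Camp, Ngp and Lcn2, 7 were called higher in AML than in lineage-negative marrow, with a median of 7.38, and 0 between AML and whole marrow by limma (1 at an unadjusted p under 0.05). Ltf, lactoferrin, averaged 129397 ± 52891 over the AML libraries and 117478 ± 32528 over those of whole marrow (SD). Of 18 other late neutrophil genes, 15 were called higher in AML than in lineage-negative marrow and 0 lower.

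Against whole marrow those late genes split. Selplg, Ifitm1 and Ifitm2 were called higher in AML, and Il1b and Ccrl2 lower. With TMM 0 were called higher and 7 lower, including Cd101 (-1.37), Mxd1 (-1.06) and Csf3r, the receptor of granulocyte colony-stimulating factor. Selplg, Ifitm1 and Ifitm2 are not markers of late stages alone, since lineage-negative marrow held them near the level of whole marrow. Means in lineage-negative and whole marrow were 4266 and 4702 for Selplg, 713 and 686 for Ifitm1, and 2651 and 2916 for Ifitm2. Of the 18 late genes, 14 were called lower in lineage-negative than in whole marrow at the deposited scaling, and 4 were not called. Median differences between AML and whole marrow were 0.16 for primary granule genes, 0.33 for secondary granule genes, -0.18 for the 9 receptors, S100 genes and Padi4, and -0.24 for the other late genes, beside 0.67 for all genes. With TMM they were -0.54, -0.37, -0.88 and -0.94, beside -0.01. Differences between these medians were not tested.

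**Figure D5:**
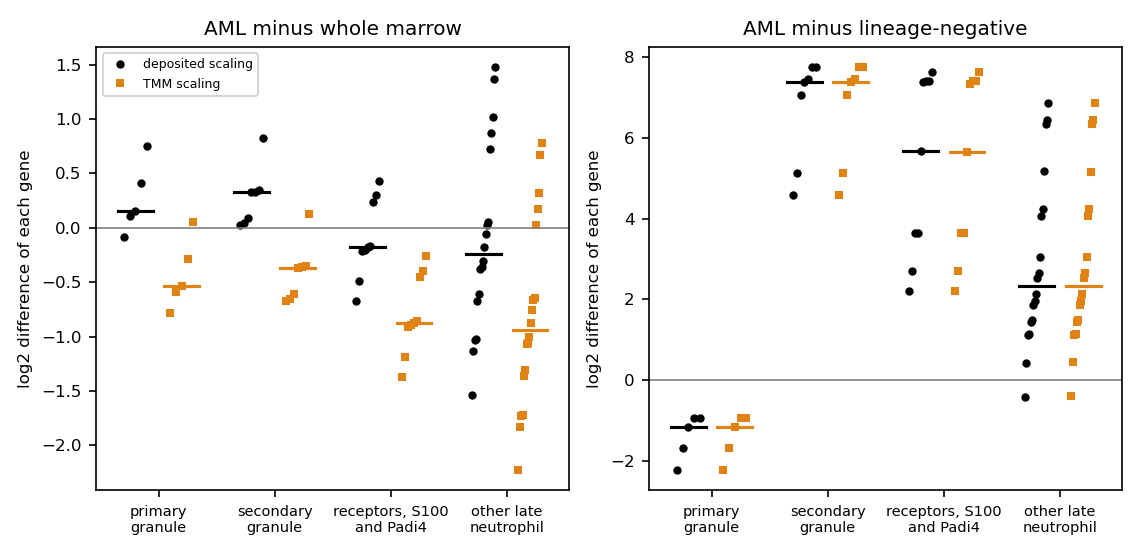
Log2 differences of single genes (points) and list medians (lines) for 5 primary granule, 7 secondary granule, the 9 receptor, S100 and Padi4 genes and 18 other late neutrophil genes, at the deposited scaling (black) and with TMM (orange). Against whole marrow the medians run from 0.33 to -0.24 at the deposited scaling and from -0.37 to -0.94 with TMM; against lineage-negative marrow only the primary granule genes have a median below 0, at -1.16.

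Of 7 other genes of the S100 list kept (6 S100 genes and S100pbp, the gene of an S100-binding protein), 5 were called higher in AML than in lineage-negative marrow and 3 higher than in whole marrow. Over all genes tested these shares were 17.7% and 27.3%. S100a6 averaged 10594 ± 3229 in AML, 5766 ± 2179 in whole and 345 ± 151 in lineage-negative marrow, and was higher in AML than in lineage-negative marrow by 4.98 (adjusted p = 8e-11). S100a4 was higher in AML than in whole marrow by 2.51 (adjusted p = 4.3e-06) and S100a10 by 1.98 (adjusted p = 3.5e-07), and both remained called with TMM (1.81 and 1.28). S100a8 and S100a9 thus had no call against whole marrow where these 2 relatives had one. Differences between the genes were not tested.

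The receptors and signal carriers that extracellular S100A8 and S100A9 use include Tlr4, Cd14 and Myd88. Of 7 such genes, 5 were called higher in AML than in lineage-negative marrow and 0 lower; against whole marrow Cd14 (1.48, adjusted p = 0.0019) and Myd88 (1.46, adjusted p = 2.3e-05) were called higher and Cd36, a fatty acid transporter, lower (-3.17, adjusted p = 0.00014). With TMM the first 2 were no longer called. In the TREM group, Tyrobp, the signalling adaptor, averaged 11888 ± 1800 in AML, 5962 ± 2143 in whole and 1528 ± 259 in lineage-negative marrow, and was higher in AML by 1.06 than in whole marrow (adjusted p = 0.00036; 0.36 and not called with TMM) and by 2.96 than in lineage-negative marrow (adjusted p = 1.6e-09). Of the 6 genes kept in this group, 4 were called higher and 1, the platelet gene Treml1, lower in AML than in lineage-negative marrow.

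CXCR2 ligands were scarce. Of 6 in the table, 2 were kept, and Cxcl1, Cxcl3, Cxcl5 and Cxcl15 did not exceed 24.2 in any library. Ppbp, a platelet chemokine, was lower in AML than in whole marrow (-3.39, adjusted p = 0.00015), and Cxcl2 gave -1.46 (adjusted p = 0.092). Cxcl12, the retention chemokine and ligand of CXCR4, gave -1.41 in AML against whole marrow (adjusted p = 0.069; -2.10 and called lower with TMM) and was called higher than in lineage-negative marrow (1.71, adjusted p = 0.040). Of 8 retention and other chemoattractant receptor genes, 6 were called higher in AML than in lineage-negative marrow, among them Ptafr, the receptor of platelet-activating factor (4.37, adjusted p = 3.7e-11), and C5ar1, the complement C5a receptor (5.38, adjusted p = 9.5e-10). Against whole marrow 1 was called higher, the integrin Itga4, and 1 lower, the adhesion molecule Vcam1.

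Among 9 interleukin 1 genes kept, 3 were called higher and 2 lower in AML than in lineage-negative marrow. Il1b, the ligand that IL1R2 captures, averaged 675 ± 247 in AML, 1606 ± 787 in whole and 37.2 ± 17.3 in lineage-negative marrow, and was below whole marrow in AML with a call (-1.14, adjusted p = 0.016). Il1rn, the soluble antagonist of the same pathway, gave -0.86 there (adjusted p = 0.13), which did not pass the test at the deposited scaling, and -1.56 with TMM (adjusted p = 0.017). Of 13 genes that relay formyl peptide and CXCR2 signals, 8 were called higher in AML than in lineage-negative marrow, including the kinase Fgr (6.39), and 2 higher than in whole marrow, with 0 called between AML and whole marrow with TMM (3 at an unadjusted p under 0.05 in limma). Of 10 transcription factors of neutrophil formation, 6 were called higher in AML than in whole marrow at the deposited scaling and 1, Cebpa, with TMM (1.19). Over all genes tested, 27.3% were called higher in AML than in whole marrow at the deposited scaling and 4.73% with TMM. Cebpa is not a marker of late stages alone: lineage-negative marrow was also called higher than whole marrow (1.90, and 1.20 with TMM). Cebpe, which acts at the secondary granule stage, gave -0.15 in AML against whole marrow (limma, adjusted p = 0.64). It was higher in AML than in lineage-negative marrow (2.38, adjusted p = 5e-07).

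Genes with the profile most like that of the 9 were sought among 10422 genes averaging 100 or more, by the correlation over 15 samples with the mean standardised profile of the set. The 5 most alike were Pglyrp1 (r = 0.996), C5ar1 (0.995), Lin28a (0.993), Mmp8 (0.992) and AA467197 (0.992). The gap between lineage-negative libraries and the rest carries much of such an r, and over the 7 AML libraries alone the values were 0.963, 0.952, 0.974, 0.920 and 0.980. Pglyrp1, a granule peptidoglycan recognition protein, averaged 4964 ± 2657 in AML, 4592 ± 1607 in whole and 284 ± 121 in lineage-negative marrow. Lin28a, an RNA-binding protein known from embryonic stem cells, averaged 884 ± 415, 1194 ± 362 and 64.5 ± 25.3.

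Markers of other cell types differed between the groups along with the 9 genes. Summed neutrophil markers had a median of 67227 in AML, 83625 in whole and 1759 in lineage-negative marrow, with ranges of 42181 to 161212, 51955 to 110988 and 1281 to 3430; 0 of the 6 were called between AML and whole marrow by limma (0 at an unadjusted p under 0.05; 1 called lower with TMM), and 6 of 6 were called higher in AML than in lineage-negative marrow. Monocyte markers, a lineage that also makes S100A8, S100A9 and FPR2, had medians of 97021, 21438 and 24812, with ranges of 59828 to 110919, 12289 to 24490 and 18832 to 29081; 6 of 6 were called higher in AML in both comparisons at the deposited scaling, and 5 of 6 against whole marrow with TMM. The part of monocytes in the AML levels was not tested. Between lineage-negative and whole marrow 1 of 6 monocyte markers was called higher and 0 lower at the deposited scaling. With TMM 0 were called higher and 1 lower. All 9 genes were called lower under both scalings. Irf8, the monocyte marker called higher, averaged 6527 in lineage-negative and 2784 in whole marrow. Whether the monocyte markers stand for monocytes in lineage-negative marrow was not tested.

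Other marker sums also moved with the groups. Stem and progenitor markers had a median of 15732 in lineage-negative marrow, 2537 in AML and 2555 in whole marrow. The like sums of AML and whole marrow hide opposite differences of single markers. Cd34 was higher in AML by 1.11 (limma, adjusted p = 0.015, not called with TMM). Gata1 was lower in AML by -5.27 (limma, adjusted p = 1.2e-08), and 2 markers were not called. Eosinophil markers had medians of 350 in AML, 33975 in whole and 16102 in lineage-negative marrow, and those of lineage-negative marrow lay between 6620 and 32516; mast cell markers stood at 508, 2439 and 15044. B cell markers had medians of 999, 5381 and 371, T cell markers 533, 291 and 46.7, and megakaryocyte markers 192, 873 and 3097. No summed list was at 0 in any library, and their part in the differences of the 9 genes was not tested.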

How the data were processed

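Bulk RNA-seq of total RNA was analysed in 15 mouse bone marrow samples, prepared with a stranded total RNA kit per the labels. The deposited table holds a normalized signal per gene, counts divided by the authors' DESeq2 size factors of the type poscounts, as the name of the deposited table states. The submitters' processing notes name STAR, Partek, DESeq2 and mm10 with no version. Groups and replicate numbers came from sample titles. Between 81.2% and 86.4% of low values were whole multiples of the value of 1 read (tolerance 0.02), so whole reads were not recovered and no count test was run. Depth is the library total divided by that value, and floors of 3 reads cover counting error only. The counting strand is not given in the sources used here.

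Genes with at least 10 normalized counts in at least 4 samples were kept (18941, with 19374 removed). After adding 1, log2 values were fitted with limma 3.58.1 (R 4.3.3) as a single model of 3 group means with a mean-variance trend, two-sided, with Benjamini-Hochberg adjustment over all genes kept, tested on simulated data. TMM was computed with trims of 0.3 and 0.05. Exonic lengths came from GENCODE for GRCm38 and promoters from RefSeq. Besides the 9 genes, the text names up to 4 kept genes per list with the largest mean over all samples, other list members chosen after their values were seen, and the 5 most alike genes. The genes and the 13 context and 9 marker lists were chosen with earlier results of these data known.

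Alternatives were pseudocounts of 0.1 and 5, 2 other filters, TMM and quantile scaling, subtraction of each library's mean over 1750 olfactory and vomeronasal receptor genes, fits of 2 groups, a robust variance model, array weights, a replicate block, and leaving out libraries.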

Additional observations from a re-analysis of the deposited data

Results flagged for a closer look

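In 42 groups of 4 or 7 samples, covering the 9 genes and the 5 ratios in each of the 3 groups, 6 held a sample set apart from the others by Dixon's test at the 95% level. Chance alone would mark about 1 in 20 groups if values were normally distributed. The 9 genes were tested on unlogged values and the groups share libraries, so this rate is only a rough guide.

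Il1r2 in AML replicate 6 was 5411 normalized counts, when the next AML library had 1266. Il1r2 in whole marrow replicate 1 was 271, below 3 others at 621 to 658. That library had the lowest value for all 9 genes and the lowest total of normalized counts in its group, 10221001. Padi4 in lineage-negative replicate 1 was 390, above 3 others at 179 to 206, and the same library led its group for 7 of 9 genes.

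The remaining 3 samples concern the log2 ratio of S100a8 to S100a9. AML replicate 4 stood at -0.97, with the other 6 AML libraries between -0.75 and -0.65. Whole marrow replicate 3 stood at -0.75, with the others at -0.72 to -0.71, a gap that is large only against a very narrow range. Lineage-negative replicate 1 stood at -1.61, with the others at -0.52 to -0.33; its S100a8 value of 1714 was close to the 1807 of replicate 3, while its S100a9 value of 5246 was above the 2596 of replicate 3. The causes were not tested.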

How the results depend on the processing

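The 9 calls against lineage-negative marrow and the 9 calls of lineage-negative against whole marrow kept their direction and their side of the threshold in all 207 and 171 values recomputed. Between AML and whole marrow the count called lower rose from 0 to 1 with TMM, 2 with quantile scaling (Cxcr2 and Fpr1) and 1 with array weights (Cxcr2). Small differences there changed sign. With TMM they were -0.456 for Fpr2, -0.396 for Padi4 and -0.264 for Il1r2; with quantile scaling -0.521, -0.45 and -0.369, and 0.029 for S100a9; with array weights -0.245 for Fpr2 and -0.077 for Il1r2. Leaving out 1 library gave Fpr2 -0.105 to 0.462, S100a8 -0.511 to 0.025, S100a9 -0.497 to 0.038, Trem1 -0.578 to 0.039, Trem3 -0.456 to 0.025 and Il1r2 -0.062 to 0.643; the turn came without whole marrow replicate 1 for Fpr2, replicate 2 for the S100 and Trem genes, and AML replicate 6 for Il1r2.

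Whether the replicate numbers pair samples is not given in the sources used here. Deviations of same-numbered samples from their group means correlated at -0.29 to 0.17. Differently numbered samples were not compared, so these values cannot decide the question. With replicate number as a block, Il1r2 between AML and whole marrow was -0.052, and the counts of called genes among the 9 were unchanged.

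For ratios, the smallest p grows as samples are dropped. Without AML replicates 5 and 6, Fpr1/Fpr2 in AML against whole marrow was -0.809, Cxcr2/Cxcr4 and Il1r2/Il1r1 in AML against lineage-negative marrow 2.18 and 6.63, each with an adjusted exact p of 0.0794. With 1 library left out these 3 ran from -0.80 to -0.62, 2.21 to 2.71 and 6.42 to 7.40. The same ranges were -0.17 to 0.81 for Il1r2/Il1r1 and -0.12 to 0.16 for Trem1/Trem3 in AML against whole marrow. S100a8/S100a9 ran from -0.0318 to 0.0213 there, from -0.31 to 0.12 in AML against lineage-negative marrow and from -0.13 to 0.29 in lineage-negative against whole marrow, where a pseudocount of 5 gave 0.0002002. The causes were not tested.

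Over all genes, 5167 were called higher in AML than in whole marrow, but 896 with TMM, 2474 with quantile scaling and 3165 without whole marrow replicate 1. The 2132 called lower became 3038 with TMM, 11289 with every non-zero gene, 460 with a mean of at least 50, 1032 after receptor subtraction and 1237 to 1315 with 1 whole marrow library left out. The 6266 called higher in lineage-negative than in whole marrow became 2075 with TMM and 4133 with quantile scaling; the 3259 called lower became 12497 with every non-zero gene, 1244 with a mean of at least 50 and 1951 after receptor subtraction. The 3359 called higher in AML than in lineage-negative marrow became 2225 with a mean of at least 50.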
